A study of Rattus norvegicus with 12 samples.

Results

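The change of gene expression with menthol was measured in ND7/23 cells as a single contrast, 6 RNA-seq libraries from cells given menthol against 6 libraries from cells not given it. The 6 libraries with menthol were 3 from cells given 100 μM menthol and 3 from cells given 100 μM menthol with 100 ng/ml Wnt3a. The 6 libraries without menthol were 3 from control cells and 3 from cells given 100 ng/ml Wnt3a. All 12 libraries of the series entered the comparison, and all cells were stimulated for 6 h. Of the 21556 genes in the table, 11451 had a mean of at least 0.5 FPKM (read fragments per length of gene and per number of mapped fragments) and were tested. The test was an additive fit in limma on log2(FPKM + 0.1) with Wnt3a as covariate, and a gene was called raised or lowered at a Benjamini-Hochberg adjusted p under 0.05 with no minimum fold change. The question was which genes and pathways move with menthol both in the absence and in the presence of Wnt3a.

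ND7/23 is a hybrid line, made by fusing mouse neuroblastoma cells with neurons of the rat dorsal root ganglion. The labels do not say whether the 3 libraries of a group came from separate cultures, so the p-values measure the spread between these libraries, which may be technical. The study's methods name DMSO as the solvent of the menthol stock, in their account of the mice. Whether the cells without menthol received DMSO is not given in the sources used here, so menthol and its solvent cannot be told apart in the values below. The libraries held 36914010 to 38836269 reads on genes, a ratio of 1.052 between the deepest and the shallowest. In a principal component analysis, replicate 1 of menthol and replicate 3 of menthol with Wnt3a lay at the 2 ends of component 2 (scores of 11.8 and -10.4, 12.1% of the variance).

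The defining markers of neurons were nearly absent from these libraries. *Tubb3* lay between 0 and 0.0922 FPKM, *Stmn2* between 0 and 0.0991 FPKM and *Gap43* between 0 and 0.213 FPKM. Of 7 neuronal and 8 sensory neuron markers, *Uchl1* (94.2 to 111.5 FPKM) and *Isl1* (9.28 to 17.6 FPKM) passed the minimum. Of 7 markers of fibroblasts and stroma 4 passed it, and *Col1a2* reached 108.8 to 126.5 FPKM. *Trpm8*, the cold and menthol receptor, had 61 to 97 reads per library and was below the minimum, and *Trpa1*, another channel that menthol can act on, had 0 to 8 reads. The reads of *Trpm8* were 61, 67 and 88 in control, 71, 64 and 63 with menthol, 88, 62 and 65 with Wnt3a and 77, 90 and 97 with menthol and Wnt3a, so the groups overlapped both without and with Wnt3a.

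Menthol opens TRPM8, a cation channel of cold-sensing neurons that lets calcium into the cell. It can also act on other channels. Several of the gene groups below are known targets of a single regulator. Metallothioneins are small proteins that bind zinc and copper, and the factor MTF1 switches their genes on through metal response elements when free zinc rises. In the integrated stress response, phosphorylation of the initiation factor eIF2 slows translation and favours the factor ATF4, which switches on genes of amino acid synthesis, amino acid uptake and tRNA charging. Serum response factor (SRF) and its partner MRTF follow the amount of free actin and control genes of the actin cytoskeleton through CArG boxes.

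The promoters of the genes with these elements were read from RefSeq (build GRCr8), since the metallothioneins had the largest rises of the called genes and 4 synthetase genes were called raised. The submitters' processing notes name the build mRatBN7.2 for the expression values, and the coordinates given here belong to GRCr8 alone. For *Mt1* the 250 bases before the start lie at chr19:10832976-10833225 and for *Mt2A* at chr19:10838709-10838958, both on the minus strand. Capitals mark the core of the metal response element, TGCACNC or TGCGCNC on either strand.

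Mt1: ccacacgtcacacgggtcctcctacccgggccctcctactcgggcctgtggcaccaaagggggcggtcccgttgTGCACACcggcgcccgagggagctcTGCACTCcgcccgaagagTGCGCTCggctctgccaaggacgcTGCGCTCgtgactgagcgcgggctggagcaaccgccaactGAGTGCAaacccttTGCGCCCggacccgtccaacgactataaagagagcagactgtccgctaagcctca

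Mt2A: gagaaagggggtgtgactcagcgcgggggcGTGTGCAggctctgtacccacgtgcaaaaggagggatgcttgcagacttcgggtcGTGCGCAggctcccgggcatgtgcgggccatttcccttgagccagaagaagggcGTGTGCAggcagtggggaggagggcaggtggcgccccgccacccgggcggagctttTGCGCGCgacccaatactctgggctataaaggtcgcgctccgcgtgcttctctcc

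The *Mt1* window held 6 matches and the *Mt2A* window 4, none of which overlapped another match. A match of this short core is common, since 31% of the 9363 tested genes with a promoter in the table and 21.2% of all 27457 promoters held at least 1, and so did 15 of 52 raised genes with a promoter (28.8%). At least 4 matches were found in 44 of the tested promoters (0.47%) and at least 6 in 2 of them. For *Mt1m* no promoter is printed.

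For the synthetase genes *Iars1* (chr17:15193653-15193902, minus strand) and *Tars1* (chr2:62114803-62115052, minus strand), capitals mark the core of the composite element bound by ATF4 and a C/EBP factor, TGATGNAA on either strand.

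Iars1: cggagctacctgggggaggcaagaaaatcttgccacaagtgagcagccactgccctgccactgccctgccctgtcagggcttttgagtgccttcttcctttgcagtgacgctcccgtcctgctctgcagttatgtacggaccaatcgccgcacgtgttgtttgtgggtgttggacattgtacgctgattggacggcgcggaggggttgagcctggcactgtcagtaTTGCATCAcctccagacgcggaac

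Tars1: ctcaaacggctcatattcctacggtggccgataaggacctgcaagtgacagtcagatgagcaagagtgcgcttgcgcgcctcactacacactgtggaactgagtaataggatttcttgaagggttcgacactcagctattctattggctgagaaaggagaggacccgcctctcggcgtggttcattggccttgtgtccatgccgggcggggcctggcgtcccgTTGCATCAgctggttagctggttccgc

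In both windows the match lay on the reverse strand near the start of the gene. This core was present in 1.82% of the tested promoters and 3.27% of all promoters of the table. It was present in 5 of 14 promoters of tested aminoacyl-tRNA synthetases (35.7%), in 7 of 27 of the tested integrated stress response genes (25.9%) and in 4 of 52 promoters of raised genes (7.69%). The raised stress response genes *Psat1*, *Slc7a5*, *Mthfd2*, *Shmt2* and *Ppp1r15a* held 0 matches each. Of the other raised synthetase genes, *Nars1* held 1 match and *Yars1* 0. The CArG box, also searched on both strands, was found in 1.2% of tested promoters and 1.5% of all promoters, in 4 of 14 of the tested SRF and actin genes (28.6%) and in 1 of 61 of the lowered genes (1.64%). Of the lowered SRF and actin genes, *Cnn2* held 1 match, *Actn1*, *Flna* and *Vcl* held 0, and *Actb* and *Tagln* had no promoter in the table. These are matches of letters in a window, not sites of binding.

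The results showed that menthol was accompanied by small changes in 137 of the 11451 genes (1.2%). Of these, 58 were raised (0.507% of the genes tested) and 79 were lowered (0.69%). After centring every library on its own median the split was 44 raised and 103 lowered. Of the called genes only *Mt1* changed by more than 2-fold. The log2 fold changes of the raised genes ran from 0.08 to 1.32 with a median of 0.14, and those of the lowered genes from -0.69 to -0.09 with a median of -0.16, while the median absolute change of all tested genes was 0.045. In 40 of the raised genes all 6 menthol libraries were above the 6 others, and in 44 of the lowered genes all 6 were below. Over all tested genes such a separation was found upward in 91 genes (0.795%) and downward in 85 (0.742%). At an unadjusted p under 0.05, 811 genes were higher (7.08%) and 931 lower (8.13%). Leaving out 1 library at a time gave 22 (without replicate 1 of Wnt3a) to 74 (without replicate 1 of menthol) raised genes and 35 to 97 lowered genes, with the same libraries at the ends. Without replicate 3 of menthol with Wnt3a it gave 32 and 54. The fit on read counts recovered from the FPKM values (limma voom) gave 98 raised and 150 lowered genes, which included 124 of the 137.

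A further 33 genes had a log2 change above 0.5 in size and were not called. Their median level was 0.738 FPKM, against 10.3 FPKM for all tested genes, 32.6 FPKM for the raised genes and 26.7 FPKM for the lowered genes.

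The same contrast was then read separately without and with Wnt3a, in pairs of groups that share no library. Menthol against control gave 12 called genes (0.105%), and menthol with Wnt3a against Wnt3a gave 6 (0.0524%). These counts moved with the settings, to 60 and 143 with voom, 21 and 24 with the replicate number as a block, 20 and 29 with array weights, 3 and 0 with fits of 2 groups, and 0 to 15 and 0 to 38 with 1 library left out, so no order of the pairs is read from them. *Tgfb1i1*, *Eno3*, *Il1rl1* and *Ogn* were called in both, each lowered in both. The other genes called without Wnt3a were *Mt1* and *Bloc1s4* (raised) and *Actn1*, *Aldh3a1*, *Clic5*, *Krt7*, *Pcolce* and *Tnc* (lowered), and those called with Wnt3a were *LOC290595* and *Tm4sf1*, both lowered. *Bloc1s4*, a subunit of a complex of lysosome biogenesis, had log2 changes of 0.36 without and -0.05 with Wnt3a and was not called over all 12 libraries (adjusted p = 0.284). The interaction of menthol and Wnt3a was called in 0 genes by limma, with 800 genes at an unadjusted p under 0.05 and a lowest adjusted p of 0.0957. The voom fit also called 0. Leaving out 1 library gave 0 or 1.

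Across all tested genes, the change with menthol had the same sign without and with Wnt3a in 57% of genes. Across genes, which are not independent replicates, Pearson's r between both changes was 0.137 and Spearman's rho 0.208 over the 11451 genes. Among the 1069 genes at an unadjusted p under 0.05 without Wnt3a the share with the same sign was 72.3%, and among the 1660 such genes with Wnt3a it was 68%. All 137 called genes had the same sign in both and 134 had an unadjusted p under 0.05 in both. This follows in part from the calls, which were made on both pairs together.

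**Figure D1:**
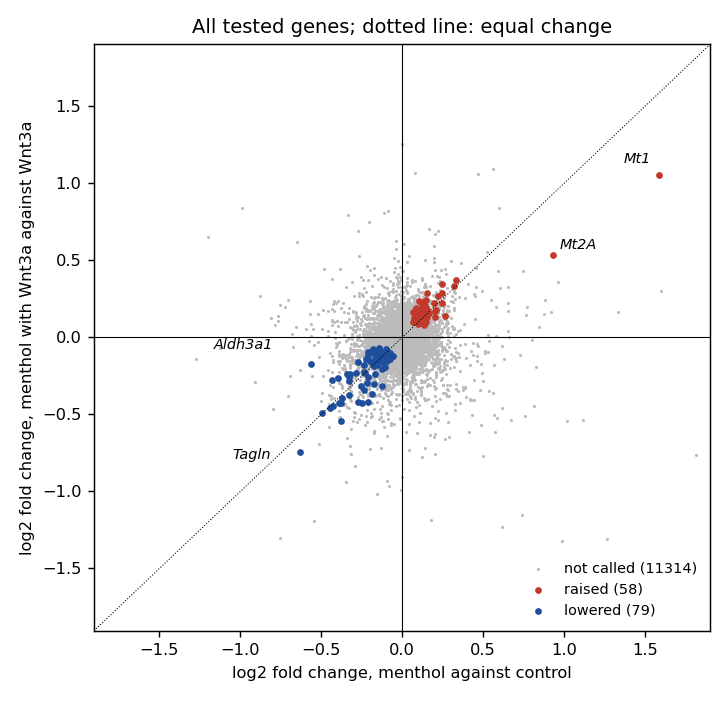
Log2 fold change of each of the 11451 tested genes for menthol against control (x axis) and for menthol with Wnt3a against Wnt3a (y axis). Red points are the 58 raised and blue points the 79 lowered genes, grey points were not called and the dotted line marks equal change. *Mt1* and *Mt2A* stand apart at the upper right and lie below the line, and *Aldh3a1* lies above it at the left.

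Among the called genes, the metallothionein genes *Mt1* and *Mt2A* showed the largest rises. *Mt1* (gene 24567) was at 158, 93.1 and 117 FPKM in control, 458, 312 and 324 FPKM with menthol, 117, 83.1 and 106 FPKM with Wnt3a, and 287, 176 and 182 FPKM with menthol and Wnt3a. All 6 menthol libraries were above all 6 others, and in each of the 4 groups the highest library was replicate 1. The mean was 112 ± 25.9 FPKM without and 290 ± 105 FPKM with menthol (SD, n = 6), a log2 change of 1.32 ± 0.16 (SE, limma adjusted p = 0.00143). *Mt2A* was at 790, 568 and 659 FPKM in control, 1598, 1093 and 1172 FPKM with menthol, 673, 556 and 646 FPKM with Wnt3a, and 1189, 745 and 828 FPKM with menthol and Wnt3a. The lowest menthol library was below the highest library without menthol, but the groups did not overlap within either pair. Its log2 change was 0.73 ± 0.13 (SE, limma adjusted p = 0.0113), and the call was lost when no FPKM minimum was set (adjusted p = 0.0644).

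The rise of both genes was larger in number without Wnt3a than with it, 1.586 against 1.054 for *Mt1* and 0.93 against 0.53 for *Mt2A* on the log2 scale. The difference was not past the threshold (interaction, limma adjusted p = 0.744 and 0.757). The low *Mt1m* was at 1.46 to 2.11 FPKM in control, 3.22 to 7.32 FPKM with menthol, 2.08 to 3.91 FPKM with Wnt3a and 1.80 to 7.15 FPKM with menthol and Wnt3a. Its log2 change was 0.95 ± 0.32 and it was not called (limma adjusted p = 0.177). Metallothionein coding sequences are much alike, and how the counting split reads that fit more than 1 of them is not given in the sources used here. Of 16 tested genes of zinc transport, 0 were called, with a median log2 change of -0.01 and 4 at an unadjusted p under 0.05.

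**Figure D2:**
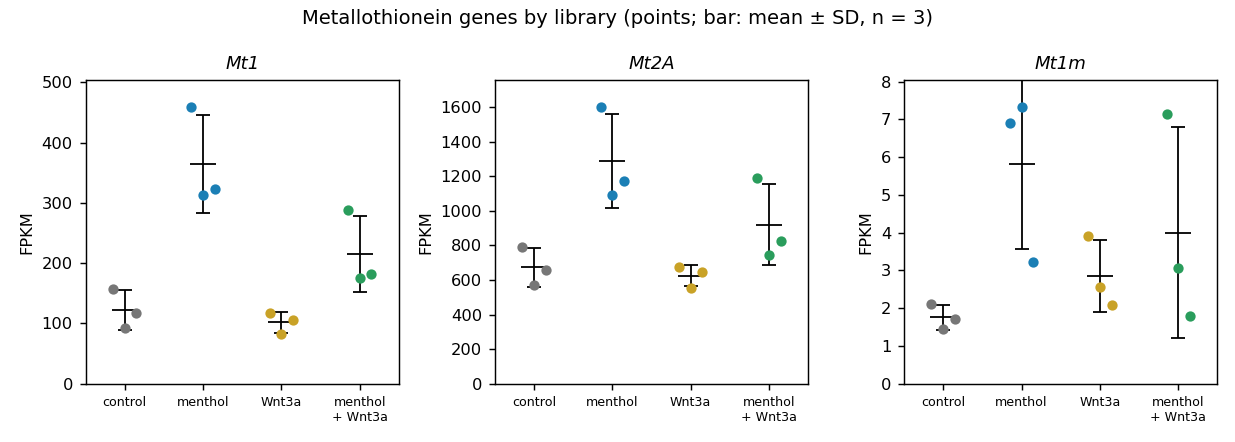
FPKM of *Mt1*, *Mt2A* and *Mt1m* in each library (points) by group, with the mean and SD of 3 libraries, on axes that start at 0. For *Mt1* the menthol libraries lie at 312 to 458 FPKM and those of menthol with Wnt3a at 176 to 287 FPKM, above the range of 83.1 to 158 FPKM of the others.

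Of 30 tested genes of the integrated stress response, 28 had a higher mean with menthol and 2 a lower one. At an unadjusted p under 0.05 there were 15, all higher, and 5 were called raised. The median log2 change was 0.09, against -0.00098 for all tested genes. *Psat1*, which makes phosphoserine for serine synthesis, was at 51.1 to 55.4 FPKM (median 53.1) without and 56.0 to 67.4 FPKM (median 64.6) with menthol. All 6 menthol libraries were above the others, and the log2 change was 0.25 ± 0.04 (SE, limma adjusted p = 0.00799). *Slc7a5*, the light chain of the large neutral amino acid transporter, was at 25.9 to 29.0 FPKM without and 29.3 to 32.9 FPKM with menthol, with no overlap (log2 change 0.18, adjusted p = 0.0151).

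The mitochondrial one-carbon enzymes *Mthfd2* and *Shmt2* rose by log2 changes of 0.17 and 0.12 (limma adjusted p = 0.0228 and 0.0437), each with 1 or more libraries in overlap between the sets of 6. *Ppp1r15a* (GADD34), the phosphatase subunit that reverses eIF2 phosphorylation, was at 59.9 to 65.4 FPKM without and 67.4 to 69.5 FPKM with menthol (log2 change 0.11, adjusted p = 0.0279). The 3 most abundant members were not called. *Atf4*, the central factor of the response, had a log2 change of 0.07 (adjusted p = 0.315), *Atf5* of 0.23 (adjusted p = 0.0569) and *Cebpb* of 0.03 (adjusted p = 0.604). Under the alternatives the call of *Atf5* was gained in 6 of 20. Of 19 chaperones of the endoplasmic reticulum 14 were lower and 0 were called, with *Hspa5* (BiP) at a log2 change of -0.03 and 4 genes at an unadjusted p under 0.05.

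Aminoacyl-tRNA synthetases join amino acids to their tRNAs. Of 16 tested, 12 were higher, 9 had an unadjusted p under 0.05, all higher, and 4 were called raised. *Iars1* (isoleucine) was at 36.8, 34.0 and 36.6 FPKM in control, 38.6, 39.2 and 39.0 FPKM with menthol, 34.8, 32.6 and 34.6 FPKM with Wnt3a, and 39.1, 38.8 and 40.7 FPKM with menthol and Wnt3a. The groups did not overlap, and the log2 change was 0.17 ± 0.03 (SE, limma adjusted p = 0.0116). *Nars1* (asparagine), *Yars1* (tyrosine) and *Tars1* (threonine) rose by 0.12, 0.12 and 0.10 on the log2 scale (limma adjusted p = 0.0293, 0.0376 and 0.0295), also with no overlap. The 2 most abundant members, *Sars1* (serine) and *Aars1* (alanine), had log2 changes of 0.11 and 0.08 (adjusted p = 0.0993 and 0.148). In KEGG, 4 of 44 tested genes of aminoacyl-tRNA biosynthesis were called, all raised, as were 2 of 16 of the one carbon pool by folate. Over all members of these pathways 27 were higher and 17 lower in the first (20 of 44 higher with Wnt3a present), and 7 higher and 9 lower in the second. *Psat1*, *Slc7a5* and *Iars1* kept their calls under each of the 20 alternatives, while *Shmt2* lost its call in 14 of them, *Tars1* in 11, *Nars1* and *Yars1* in 10 each, *Ppp1r15a* in 8 and *Mthfd2* in 6.

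*Slc6a9*, the glycine transporter GLYT1, had the third largest rise of the called genes. It was at 8.63 to 9.76 FPKM (median 9.30) without and 10.7 to 12.9 FPKM (median 12.1) with menthol, with no overlap and a log2 change of 0.35 ± 0.05 (SE, limma adjusted p = 0.00294). *Slc1a5*, a transporter of glutamine and other neutral amino acids, was at 55.8 to 57.9 FPKM without and 59.2 to 65.7 FPKM with menthol (log2 change 0.14, adjusted p = 0.0154). It was named after its values were seen.

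**Figure D3:**
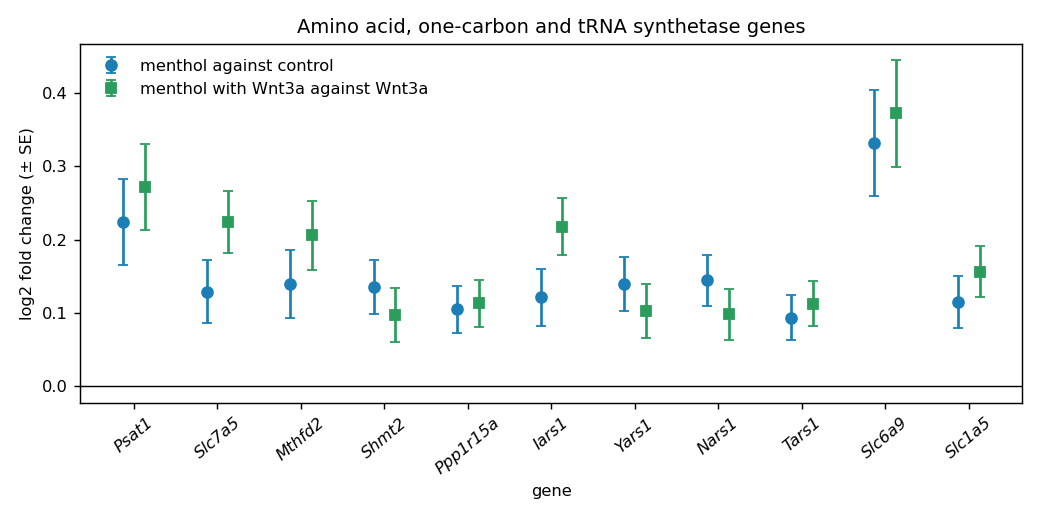
Log2 fold change with its standard error for 11 raised genes, menthol against control (circles) and menthol with Wnt3a against Wnt3a (squares). Both changes are above 0 for each gene, from 0.09 for *Tars1* without Wnt3a to 0.37 for *Slc6a9* with it.

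Of 17 tested SRF and actin genes 15 had a lower mean with menthol, 12 had an unadjusted p under 0.05, all lower, and 6 were called lowered. The median log2 change was -0.12. *Tagln* (transgelin, an actin-binding protein) had the largest fall of all called genes. It was at 5.27, 3.60 and 3.64 FPKM in control, 3.06, 2.51 and 2.32 FPKM with menthol, 4.92, 3.38 and 4.42 FPKM with Wnt3a, and 2.50, 2.21 and 2.70 FPKM with menthol and Wnt3a. All 6 menthol libraries were below the others, with a log2 change of -0.69 ± 0.11 (SE, limma adjusted p = 0.00663). *Actb* (β-actin), the most abundant of the group, was at 2808 to 2970 FPKM (median 2936) without and 2511 to 2767 FPKM (median 2609) with menthol. It did not overlap either, with a log2 change of -0.16 ± 0.02 (SE, limma adjusted p = 0.00555), a fall of 10.2%. *Actb* shares sequence with *Actg1* and with processed copies, which were not told apart here. *Actg1* (γ-actin) had a log2 change of -0.14 (adjusted p = 0.0852).

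*Cnn2* (calponin 2) was at 196 to 220 FPKM without and 184 to 197 FPKM with menthol, and *Vcl* (vinculin), which ties actin to adhesions, at 107 to 124 FPKM and 100.3 to 111 FPKM. Their log2 changes were -0.13 and -0.12 (limma adjusted p = 0.00623 and 0.0293). The crosslinkers *Flna* (filamin A) and *Actn1* (α-actinin 1) changed by -0.15 and -0.13 (adjusted p = 0.024 and 0.0202). In *Vcl*, *Flna* and *Actn1* the control libraries stood above those of the 3 other groups. *Actn1* was at 66.2, 64.3 and 65.6 FPKM in control, 59.1, 57.3 and 56.5 FPKM with menthol, 59.1, 57.4 and 59.1 FPKM with Wnt3a, and 56.9, 55.0 and 54.5 FPKM with menthol and Wnt3a. The levels with Wnt3a alone thus overlapped those with menthol alone, and the change with menthol was -0.18 without and -0.08 with Wnt3a (interaction, unadjusted p = 0.0269, limma adjusted p = 0.715). For *Flna* the Wnt3a libraries (150.3 to 168 FPKM) overlapped those of menthol with Wnt3a (146 to 154 FPKM). The calls of *Vcl* and *Flna* were lost in 8 of the 20 alternatives, that of *Actn1* in 3, and that of *Actb* in 1, where no FPKM minimum was set.

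*Tgfb1i1* (Hic-5), an adaptor of focal adhesions, had the lowest adjusted p of all genes. It was at 35.9, 34.1 and 34.7 FPKM in control, 26.9, 28.9 and 24.9 FPKM with menthol, 35.7, 36.2 and 32.2 FPKM with Wnt3a, and 26.05, 25.3 and 25.95 FPKM with menthol and Wnt3a. The log2 change was -0.40 ± 0.04 (SE, limma adjusted p = 0.000271), close to equal without (-0.38) and with Wnt3a (-0.43). Of 138 tested KEGG focal adhesion genes 8 were called (5.8%), all lowered (*Tnc*, *Actb*, *Actn1* and *Flna* with the lowest p). At an unadjusted p under 0.05 there were 37, and 32 of these were lower. Over all 138 genes 72 were lower and 66 higher, with 50 higher without Wnt3a and 68 with it. Of 148 tested genes of the regulation of actin cytoskeleton 4 were called (2.7%, against 1.2% of all tested genes), all lowered. Among them was *Actr3*, a subunit of the Arp2/3 complex (log2 change -0.11, limma adjusted p = 0.0279). Over all 148, 83 were lower and 65 higher, with 51 higher without Wnt3a and 72 with it. Among 176 tested genes with the term actin binding, which was chosen after the values were seen, 11 were called and all were lowered, while over all 176 there were 104 lower and 72 higher, and 86 higher with Wnt3a present. The called genes include the capping protein subunit *Capzb*, *Cald1* (caldesmon) and *Eps8*, with log2 changes of -0.09, -0.11 and -0.12 (limma adjusted p = 0.0293, 0.00587 and 0.0107). The calls of *Capzb* and *Actr3* were lost in 9 of the 20 alternatives.

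**Figure D4:**
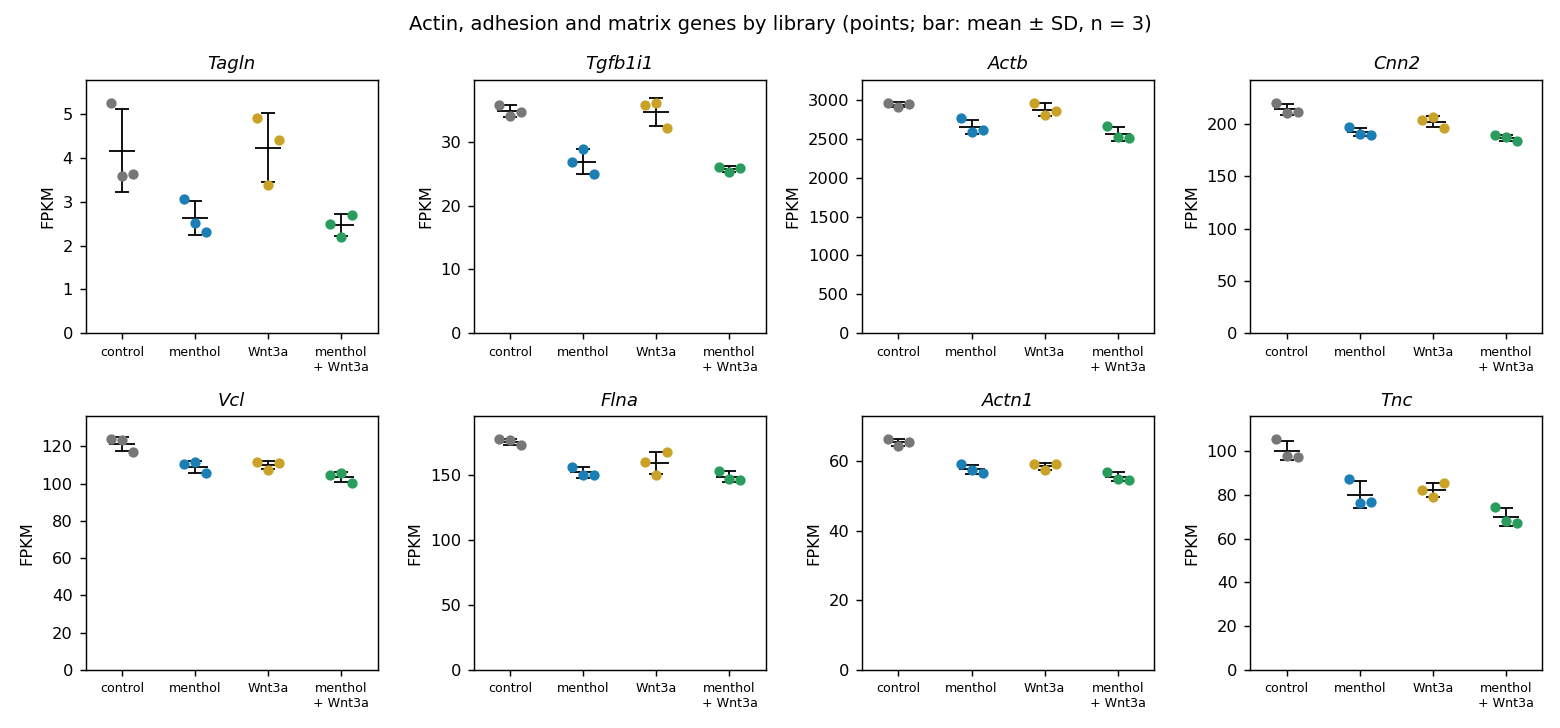
FPKM of 8 lowered genes of actin, adhesion and matrix in each library (points) by group, with the mean and SD of 3 libraries, on axes that start at 0. *Tagln*, *Tgfb1i1* and *Actb* are lower in both groups with menthol than in both groups without it, while for *Actn1* and *Tnc* the Wnt3a libraries lie near the menthol libraries.

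Of 33 tested collagens and matrix genes 26 had a lower mean with menthol, 11 had an unadjusted p under 0.05, all lower, and 3 were called. *Tnc* (tenascin C) was at 97.4 to 105 FPKM in control, 76.5 to 87.4 FPKM with menthol, 79.0 to 85.7 FPKM with Wnt3a and 67.1 to 74.6 FPKM with menthol and Wnt3a. The groups did not overlap within either pair, and the log2 change was -0.28 ± 0.04 (SE, limma adjusted p = 0.00294). *Tnc* was also lower with Wnt3a (log2 change -0.24, adjusted p = 0.00976). *Sparc* (osteonectin) and *Col1a2* (type I collagen) changed by -0.14 and -0.11 (limma adjusted p = 0.0107 and 0.0324), and *Col1a1* by -0.18 without being called (adjusted p = 0.127). The 3 most abundant members, *Thbs1*, *Timp1* and *Thbs2*, were not called (*Thbs1* log2 change -0.09, adjusted p = 0.208). The call of *Col1a2* was lost in 11 of the 20 alternatives. In this list 1 of 33 genes was higher without Wnt3a and 13 of 33 with it, with median changes of -0.10 and -0.02.

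The markers of fibroblasts and stroma include *Col1a1* and *Col1a2*, which are among the matrix genes above. They are thus not a separate reading of those genes. The summed level of these markers was 129 to 145 FPKM without and 124 to 128 FPKM with menthol, most of it *Col1a2*. The fitted change of the 4 tested markers was below 0, and the median changes were -0.22 without and -0.06 with Wnt3a. Of these 4, 3 had an unadjusted p under 0.05 and 1 was called, *Col1a2*, a call lost in 11 of the 20 alternatives. The libraries of *Col1a1*, *Col3a1* and *Pdgfra* overlapped between the sets of 6. *Dcn*, *Lum* and *Postn* stayed at or under 0.325 FPKM. Of the muscle markers 2 of 10 were tested and 0 called, with a sum of 7.63 to 9.92 FPKM without and 7.56 to 9.89 FPKM with menthol. The sums without and with menthol were 0.532 to 1.18 and 0.512 to 1.47 FPKM for glia, 1.62 to 2.73 and 1.61 to 2.35 FPKM for macrophages, and 3.10 to 3.99 and 2.53 to 3.70 FPKM for endothelium. The part of cell type in the fall of matrix and actin genes was not tested.

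Other called genes fell singly within their lists, where 1.2% of all tested genes were called. *Hspa4l*, a chaperone of the HSP110 family, rose by 0.30 (limma adjusted p = 0.00294), as 1 of 19 heat shock genes tested, and *Hk1* (hexokinase 1) by 0.11 (adjusted p = 0.0388), as 1 of 32 of hypoxia and glycolysis. *Lats2*, a kinase of the Hippo pathway, and *Tgif1*, a repressor of SMAD targets, rose by 0.12 and 0.14 (adjusted p = 0.04 and 0.0303), as 1 of 20 and 1 of 15 tested in the YAP and TGF-beta lists. *Me1* (malic enzyme) fell by 0.15 on the log2 scale as 1 of 25 NRF2 genes (adjusted p = 0.0242), of which 19 were higher and 6 lower. *Isg15* was 1 of 21 interferon genes (log2 change -0.11, adjusted p = 0.0202) and *Dbp*, an output gene of the clock, 1 of 16 circadian genes (-0.23, adjusted p = 0.0151). The calls of *Hk1*, *Lats2* and *Tgif1* were lost in 11 to 12 of the 20 alternatives.

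*Aldh3a1*, an aldehyde dehydrogenase that the aryl hydrocarbon receptor controls, had the lowest interaction p of the called genes. It was at 35.6, 33.2 and 31.0 FPKM in control, 23.3, 22.3 and 21.8 FPKM with menthol, 24.7, 25.4 and 21.6 FPKM with Wnt3a, and 24.3, 19.0 and 20.4 FPKM with menthol and Wnt3a. The control libraries stood above the 9 others, and the last 2 groups overlapped. The log2 change was -0.56 without and -0.17 with Wnt3a, and the difference was not past the threshold over all genes (interaction, unadjusted p = 0.00486, limma adjusted p = 0.715). Over all 12 libraries it was -0.37 (adjusted p = 0.0295), a call lost in 10 of 20 alternatives. The other genes with the lowest interaction p among those called were *Actn1* and *Clic5*, a chloride channel protein linked to actin (-0.28 without and -0.16 with Wnt3a, unadjusted p = 0.0281).

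Among genes of cytokine signaling, *Socs3*, an inhibitor of JAK-STAT signaling, was at 218 to 230 FPKM without and 239.9 to 252 FPKM with menthol, with no overlap (log2 change 0.15, limma adjusted p = 0.00272), and *Osmr*, the oncostatin M receptor, at 9.20 to 10.1 FPKM and 10.3 to 12.8 FPKM, also with none (0.23, adjusted p = 0.00663). With *Il24*, these were 3 of 90 tested JAK-STAT genes (3.33%, against 1.2% of all tested genes), all raised. At an unadjusted p under 0.05 there were 13 of the 90, against 15.2% of all tested genes. The call of *Il24* was lost in 11 of the 20 alternatives. *Il1rl1*, the receptor of interleukin 33, was at 125.3 to 148 FPKM without and 104 to 126 FPKM with menthol. It fell in both pairs without overlap within either, by 0.22 without and 0.30 with Wnt3a on the log2 scale (limma adjusted p = 0.0468 and 0.00963). Of the 22 cytokines and NF-kappaB genes tested, 0 were called, with 5 at an unadjusted p under 0.05. Cell adhesion molecules in KEGG had 5 of 64 called (7.81%), *Pvr* raised and *Spn*, *Sdc2*, *Cd28* and *Vsir* lowered. The calls of *Sdc2*, *Cd28* and *Vsir* were lost in 8, 10 and 13 of the 20 alternatives.

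The other large changes were in genes of unlike roles. Among the rises were *Erfe* (erythroferrone, log2 change 0.33), *Zbtb41* (0.27), *Mllt6* (0.22), *Oga*, which removes O-GlcNAc from proteins (0.21), and *Iffo2* (0.19). Among the falls were *Mat1a* (methionine adenosyltransferase, -0.49), *LOC290595* (-0.46), *Nr3c2* (the mineralocorticoid receptor, -0.45), *Cd28* (-0.44), *Spa17* (-0.41), *Oma1*, a protease of mitochondria (-0.38), *LOC120098332* (-0.35), *Ogn* (osteoglycin, -0.35) and *Tm4sf1* (-0.35). Of these, *Oga*, *Iffo2*, *Mat1a*, *LOC290595*, *Oma1* and *Ogn* had no overlap between the sets of 6. *Erfe*, *Zbtb41* and *Mllt6* lost their calls in 12 to 13 of the 20 alternatives, and *Mat1a*, *Cd28*, *Spa17* and *LOC120098332* in 9 to 11. *Mat1a*, *Nr3c2*, *Cd28* and *Spa17* were low, at most 3.04 FPKM in any library.

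In signaling pathways that lie next to TRPM8 or Wnt3a the counts were near those over all genes, of which 1.2% were called and 15.2% had an unadjusted p under 0.05. In KEGG, 0 of 92 tested genes of cAMP signaling and 0 of 99 of Wnt signaling were called by limma, with 12 and 17 at an unadjusted p under 0.05. Of 84 of calcium signaling 2 were called, *Sphk1* (sphingosine kinase 1) raised by 0.19 and *Cacna1i*, a T-type calcium channel, lowered by 0.26 on the log2 scale (limma adjusted p = 0.00294 and 0.0397). The call of *Cacna1i* was lost in 11 of the 20 alternatives. The lists of calcium handling (24 tested), of adenylate cyclases, PKA and phosphodiesterases (17), of CREB targets (14), of immediate early genes (23), of ERK feedback (13) and of TRP channels (5) held 0 called genes, with 2, 4, 0, 3, 2 and 0 at an unadjusted p under 0.05. *Axin2*, a direct target of Wnt/β-catenin signaling, was at 4.72 to 5.07 FPKM in control, 4.55 to 5.28 FPKM with menthol, 6.56 to 7.45 FPKM with Wnt3a and 7.83 to 8.71 FPKM with menthol and Wnt3a. It rose with Wnt3a (log2 change 0.62, limma adjusted p = 0.000112) and was not called for menthol (0.12 ± 0.06, adjusted p = 0.337), although with Wnt3a present the menthol libraries lay above the others. Of 10 tested Wnt targets 0 were called for menthol and 8 were higher, with 2 at an unadjusted p under 0.05. Without Wnt3a 4 of the 10 were higher with menthol and with Wnt3a 8, with median changes of -0.02 and 0.12. *Ccnd1*, *Cd44* and *Myc* had log2 changes of 0.11, -0.06 and 0.05 over all 12 libraries.

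The remaining lists held 0 called genes as well. These were sterol synthesis (25 tested, 6 at an unadjusted p under 0.05, all lower), BMP response (7, 1), p53 targets (19, 4), cell cycle and replication (35, 6), FoxO targets (16, 1), Notch (6, 1), Hedgehog (6, 0) and axon guidance (29, 2). In all, 18 of 31 lists held 0 called genes. Of 291 KEGG pathways with at least 15 tested genes, 128 held 0 called genes, and those described were chosen with results of these data known.

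**Figure D5:**
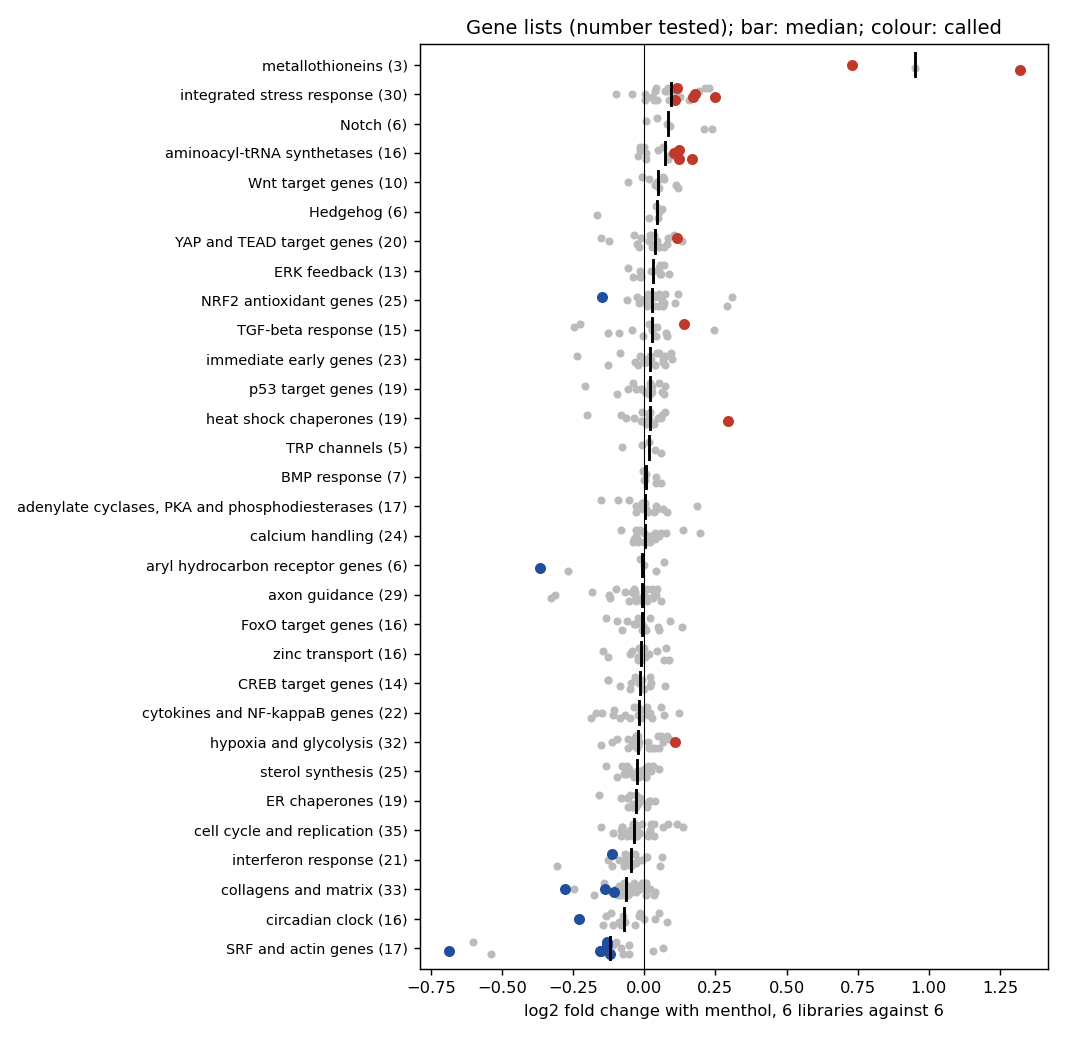
Log2 fold change with menthol of each tested gene in 31 lists, with the number tested in brackets and a bar at the median. Red points are raised and blue points lowered genes, and lists run from the highest median at the top (metallothioneins, 0.95) to the lowest at the bottom (SRF and actin genes, -0.12).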

How the data were processed

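RNA-seq was analysed in 12 libraries of ND7/23 cells, 3 in each of 4 groups, with group and replicate number taken from the sample labels. Per the study's methods and the submitters' processing notes, the authors made libraries from TRIzol-extracted RNA with the VAHTS Universal V6 kit, filtered reads with fastp, aligned them with HISAT to mRatBN7.2 and counted them with HTSeq. R 3.2.0 and DESeq2 are named there for the authors' own comparisons, which were not used. How reads from mouse transcripts of the hybrid were assigned is not given in the sources used here. The FPKM values that the authors deposited, scaled by gene length and mapped fragments, were the input. A rise of abundant genes lowers all others on this scale.

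Read counts were recovered from the steps of the FPKM values, as the smallest whole numbers in the ratios of the values. Whole numbers resulted for 21556 of 21556 genes (100%, largest relative distance 1e-15), and 1804 genes were above 0 in 1 library only, where the ratios give no count. The libraries held 36914010 to 38836269 reads on genes.

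Genes with a mean of at least 0.5 FPKM were tested on the scale log2(FPKM + 0.1) by limma 3.58.1, run in R 4.3.3. The design was additive in menthol and Wnt3a without a replicate block, the variance followed a trend, and p-values were adjusted by Benjamini-Hochberg over all 11451 genes. Fold changes are on this scale and understate those of low genes. The 2 pairs and the interaction came from a fit of the 4 groups. The genes, lists and tests were chosen with earlier results of these data known, and the lists were described by counts and medians with no set test. The genes named were the 12 largest rises and falls among the called, called list members, the 3 most abundant tested members of a list, the metallothioneins, *Trpm8*, *Trpa1*, *Axin2* and *Aldh3a1*, the 3 called genes with the lowest interaction p, and up to 4 called members of each KEGG pathway described. Genes named besides these, such as those called within a pair, were chosen after their values were seen. Promoters came from RefSeq (GRCr8), matched by gene identifier for 9363 of the tested genes.

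Alternatives were pseudocounts of 0.01 and 1, a mean FPKM of at least 1, no FPKM minimum, median-centred libraries, array weights, the replicate number as a block, voom on the recovered counts, a fold threshold of 2, a fit of 4 groups for the main effect, fits of 2 groups for the pairs, and leaving out each library.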

Additional observations from a re-analysis of the deposited data

Results flagged for a closer look

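Among 48 genes looked at in 96 sets of 6 libraries (with and without menthol), 5 libraries stood far from the others of their set, and chance gives about 1 in 20 sets. *Cd28* was at 1.278 FPKM in replicate 1 of control, where the nearest of the libraries without menthol was at 1.629 FPKM. *Ogn* was at 12.92 FPKM in replicate 1 of menthol, against 11.89 FPKM in the nearest menthol library. *Isg15* was at 55.25 FPKM in replicate 3 of menthol, against 58.49 FPKM. *Iars1* was at 40.74 FPKM in replicate 3 of menthol with Wnt3a, against 39.21 FPKM. *Tars1* was at 56 FPKM in replicate 1 of menthol, against 59.15 FPKM.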

How the results depend on the processing

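The direction of the 137 called genes did not turn under any of 20 alternatives (12 that leave out a library and 8 others), and 49 stayed past the threshold in all 20. With no FPKM minimum there were 48 lowered genes, 2 called without Wnt3a, 0 with Wnt3a, 1 interaction and 49.5% of genes with the same sign. With voom on the recovered counts 98 were raised and 150 lowered, with 60 called without and 143 with Wnt3a. Array weights gave 20 and 29 for the pairs, and fits of 2 groups gave 3 and 0. Above 2-fold, 1 gene was raised and 0 lowered. The causes of these differences were not tested, apart from the 2-fold limit, which by construction removes genes. Leaving out 1 library gave 22 to 74 raised genes, 35 to 97 lowered genes, 0 to 15 called without Wnt3a, 0 to 38 with Wnt3a, 0 to 1 interactions and 54.8 to 59.8% of genes with the same sign, in fits with 11 libraries. The number raised fell by more than 1.5 times without replicate 2 or 3 of control (28 and 23), 2 or 3 of menthol (29 and 26), 1 or 3 of Wnt3a (22 and 37), or 1, 2 or 3 of menthol with Wnt3a (36, 24 and 32). The number lowered did so without replicate 2 or 3 of control (51 and 38), 2 or 3 of menthol (50 and 39), 1 of Wnt3a (35) or 2 of menthol with Wnt3a (41). The number called without Wnt3a was 4, 1 and 0 without each control replicate, 4 and 3 without replicates 2 and 3 of menthol, and 5 without replicate 1 of Wnt3a or 2 or 3 of menthol with Wnt3a. The number called with Wnt3a was 0 without replicate 1 or 2 of Wnt3a, 38 without replicate 3 and 11 without replicate 1 of menthol.

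The labels do not say whether the replicate numbers pair the libraries, and the values given here are a description without a test. Of 18 same-numbered pairs 1 had a correlation of deviations above 0.1, with a median of 0.013 against -0.0065 for other pairs. Of the 12 libraries 7 correlated best with their own number. With the replicate number as a block, 61 genes were raised and 83 lowered (117 of the 137 among them), with 21 called without Wnt3a, 24 with Wnt3a and 0 interactions.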
